A study of Homo sapiens with 12 samples.

Results

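Transcript levels of 7 replacement histone genes were measured in MIA PaCa-2 and PANC-1, 2 lines of human pancreatic carcinoma cells, after knockdown of the RNA-binding protein RBM3, which cells make more of in the cold. The genes were H3-3A and H3-3B, which encode histone H3.3, H2AZ1 and H2AZ2, which encode histone H2A.Z, and MACROH2A1, H1-10 and H2AJ. They were found by matching listed symbols and their older names to Ensembl identifiers, and make up 7 of the 63677 gene rows of the deposited count table. All 7 genes passed the filter on low counts, and each had between 421 and 24749 counts per library. The set was chosen by a readout, since the higher level of H3-3A under RBM3 siRNA in MIA PaCa-2 was already known. Values of that comparison, and of anything computed from it, are therefore a description, with no test.

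The 4 groups were MIA PaCa-2 with RBM3 siRNA (replicates 1, 2 and 5), MIA PaCa-2 with control siRNA (replicates 1, 2 and 4), PANC-1 with RBM3 siRNA (replicates 1, 2 and 3) and PANC-1 with control siRNA (replicates 1, 2 and 4). All cells were cultured for 72 h, then transfected by lipofection with 25 nM siRNA for 4.5 h and left overnight. The RBM3 siRNA was a mixture of 2 sequences, so effects of the single siRNAs cannot be told apart. The labels name both total and cytoplasmic RNA as the material and do not say whether each replicate was its own culture. The p-values therefore measure the spread between these libraries, which may be technical.

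Most histone genes are transcribed in S phase, when new chromatin needs histones in step with DNA synthesis. Replacement histones are instead made throughout the cell cycle from polyadenylated transcripts and enter chromatin independently of replication. H3.3 is placed at active genes and enhancers by the HIRA complex and at repeats and telomeres by DAXX with ATRX, and H2A.Z is exchanged into nucleosomes beside transcription start sites by the SRCAP and EP400 complexes. MACROH2A1 encodes an H2A variant with a large C-terminal macrodomain that is linked to silent chromatin, H1-10 encodes a linker histone, and H2AJ encodes an H2A variant whose transcript is polyadenylated.

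H3-3A and H3-3B encode the same protein from different sequences, whereas processed pseudogenes copy the H3-3A coding sequence closely. The first 60 bases of the coding sequences are shown because they set how far counts of these genes can be separated. Capitals mark bases that differ from H3-3A.
H3-3A: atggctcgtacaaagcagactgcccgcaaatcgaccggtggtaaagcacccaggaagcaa
H3-3B: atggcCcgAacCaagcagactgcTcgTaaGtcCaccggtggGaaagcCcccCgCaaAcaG
H3-5: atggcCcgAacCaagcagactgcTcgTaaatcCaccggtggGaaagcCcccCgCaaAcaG
H3P16: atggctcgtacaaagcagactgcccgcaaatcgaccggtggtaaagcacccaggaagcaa

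Over the 411 bases of the coding sequence, H3-3A and H3-3B were identical at 78.6% of positions, and their longest shared run was 14 bases, far below the 75-base reads. The processed pseudogene H3P16 on chromosome 4 matched the H3-3A coding sequence at 99.3% of positions, and H3P47 on chromosome X matched it at 98.0%. Every one of the 337 windows of 75 bases in the H3-3A coding sequence occurred unchanged in at least 1 of 53 annotated H3 and H2A.Z pseudogenes, that is, 33.2% of the windows of the whole H3-3A transcript. No window of H3-3B or H2AZ2 did so, and 5.43% of the H2AZ1 coding windows did. H3-5, an intronless copy of H3-3B on chromosome 12, matched H3-3B at 96.6% of positions, with a longest shared run of 107 bases, so counts of this pair are also uncertain.

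The H2A.Z pair, whose proteins differ slightly, also differs along its coding sequence, with capitals marking bases that differ from H2AZ1.
H2AZ1: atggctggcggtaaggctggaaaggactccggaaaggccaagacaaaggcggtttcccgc
H2AZ2: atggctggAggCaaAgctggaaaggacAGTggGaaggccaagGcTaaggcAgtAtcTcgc

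The H2AZ1 and H2AZ2 coding sequences of 387 bases were identical at 80.4% of positions, with a longest shared run of 23 bases. The genes of each pair also have different promoters. The 150 bases before the transcription start are shown (RefSeq, GRCh38.p14) because the levels of the members of each pair are compared below. Capitals mark 3 motifs searched on both strands. The first is CCAAT, a box bound by NF-Y. The second is the TATA box, spelled TATAAA. The third is the octamer ATGCAAAT, bound by OCT factors. No match overlapped another.
H3-3A, chr1:226062566-226062715, plus strand: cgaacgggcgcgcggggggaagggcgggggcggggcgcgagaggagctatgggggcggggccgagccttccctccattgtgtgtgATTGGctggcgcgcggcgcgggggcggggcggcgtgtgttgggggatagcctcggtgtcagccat
H3-3B, chr17:75779780-75779929, minus strand: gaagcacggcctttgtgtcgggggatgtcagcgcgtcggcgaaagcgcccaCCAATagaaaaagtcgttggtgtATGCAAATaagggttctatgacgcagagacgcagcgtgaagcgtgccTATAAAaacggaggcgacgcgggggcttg
H2AZ1, chr4:99950276-99950425, minus strand: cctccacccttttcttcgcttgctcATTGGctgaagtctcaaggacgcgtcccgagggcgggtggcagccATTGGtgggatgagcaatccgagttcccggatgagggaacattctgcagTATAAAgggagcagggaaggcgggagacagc
H2AZ2, chr7:44848088-44848237, minus strand: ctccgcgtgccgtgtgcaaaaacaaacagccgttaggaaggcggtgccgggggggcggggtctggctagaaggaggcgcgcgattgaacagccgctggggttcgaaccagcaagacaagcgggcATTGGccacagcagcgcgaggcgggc

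CCAAT or its reverse complement stood in all 4 windows and in 23.5% of 35116 RefSeq promoter windows of this length. TATAAA stood in the H3-3B and H2AZ1 windows, 29 and 31 bases before the start, and in 6.71% of all windows. The octamer stood 76 bases before the start of H3-3B and in 0.988% of all windows. RefSeq lists 4 starts for H3-3A, and the window shown belongs to the most downstream of them. A motif match describes these letters and says nothing of which factor binds.

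The libraries held between 14217185 and 39652502 counts, and 17862 genes entered the tests. RBM3, the siRNA target, had 44.4, 37.4 and 61.9 TMM-normalised CPM (counts scaled to a common library total) in MIA PaCa-2 RBM3 siRNA libraries, against 249.8, 277 and 207 CPM in control libraries. In PANC-1 it had 96.5, 195 and 83.03 CPM in RBM3 siRNA libraries, against 567, 426 and 436 CPM in control libraries. Every RBM3 siRNA library lay below every control, with log2 fold changes of -2.35 (SE 0.31) in MIA PaCa-2 and -1.93 (SE 0.30) in PANC-1. In edgeR the PANC-1 unadjusted p was 2.9e-05 and the adjusted p 0.516, so even the siRNA target did not pass the threshold there. The keratins KRT8, KRT18 and KRT19 were detected in every library, while the epithelial markers EPCAM, KRT7 and CDH1 stayed below 1 CPM in MIA PaCa-2. The leukocyte markers PTPRC, CD3E and CD68 summed to at most 2.53 CPM in any library, nearly all of it CD68, which reached 0.978 CPM in MIA PaCa-2 and 2.53 CPM in PANC-1. The endothelial markers PECAM1, VWF and CDH5 summed to 8.04 CPM in MIA PaCa-2 control replicate 1, of which CDH5 made up 7.57 CPM, and to at most 1.05 CPM in the other libraries, with PECAM1 at 0 in every one. One library stood apart: PANC-1 RBM3 siRNA replicate 3 had 441 CPM of COL1A2 and 682 CPM of ALDH1A1, which did not exceed 1.67 and 2.14 CPM in the other 5 PANC-1 libraries, and these were 31.5% and 51.9% of the MIA PaCa-2 means. Its level of FOXA2, a PANC-1 transcript, was 58.2% of the mean of the other PANC-1 libraries. The source of the COL1A2 and ALDH1A1 transcripts in this library was not tested. The PANC-1 fold changes for RBM3 siRNA and the shares below are given with and without this library.

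H3-3A carried the difference for which the set was chosen, and H3-3B, which encodes the same protein, did not share it. H3-3A had 149.98, 153 and 201 CPM in MIA PaCa-2 RBM3 siRNA libraries, against 91.8, 114 and 82.4 CPM in control libraries. All 3 RBM3 siRNA libraries lay above all 3 control libraries, and the log2 fold change was 0.81 (SE 0.18). H3-3A was the only one of the 7 genes with no overlap between the groups here, and 4.41% of all genes tested had all RBM3 siRNA libraries above the controls. In edgeR, 0.0112% of all genes tested had an adjusted p under 0.05 in this comparison, and 0 of the 7 genes were among them. Since this comparison chose the set, that count is a description and no test of the 7 genes. H3-3B had 371, 386 and 425 CPM in MIA PaCa-2 RBM3 siRNA libraries, against 332, 439.5 and 382 CPM in control libraries. These overlapped, with a log2 fold change of 0.03 (SE 0.23). In bulk RNA, fewer cells that express a transcript and less of it per cell cannot be told apart.

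In PANC-1, where the comparison was not used to choose the genes, H3-3A did not pass the test. It had 145, 113 and 153 CPM in RBM3 siRNA libraries, against 123, 99.8 and 108 CPM in control libraries. The groups overlapped, since RBM3 siRNA replicate 2 lay below control replicate 1, and the log2 fold change was 0.32 (SE 0.18, adjusted p = 1.0 in edgeR). Without PANC-1 RBM3 siRNA replicate 3 it was 0.21 (adjusted p = 1.0). The PANC-1 response of H3-3A was lower than the MIA PaCa-2 response by a log2 difference of -0.49 (SE 0.26), which holds the comparison that chose the gene and was not tested. H3-3B had 539, 767 and 482 CPM in PANC-1 RBM3 siRNA libraries, against 911, 521 and 558 CPM in control libraries, and the groups overlapped widely (log2 fold change -0.15, SE 0.23, adjusted p = 1.0 in edgeR). Without RBM3 siRNA replicate 3 it was -0.04 (adjusted p = 1.0).

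**Figure D1:**
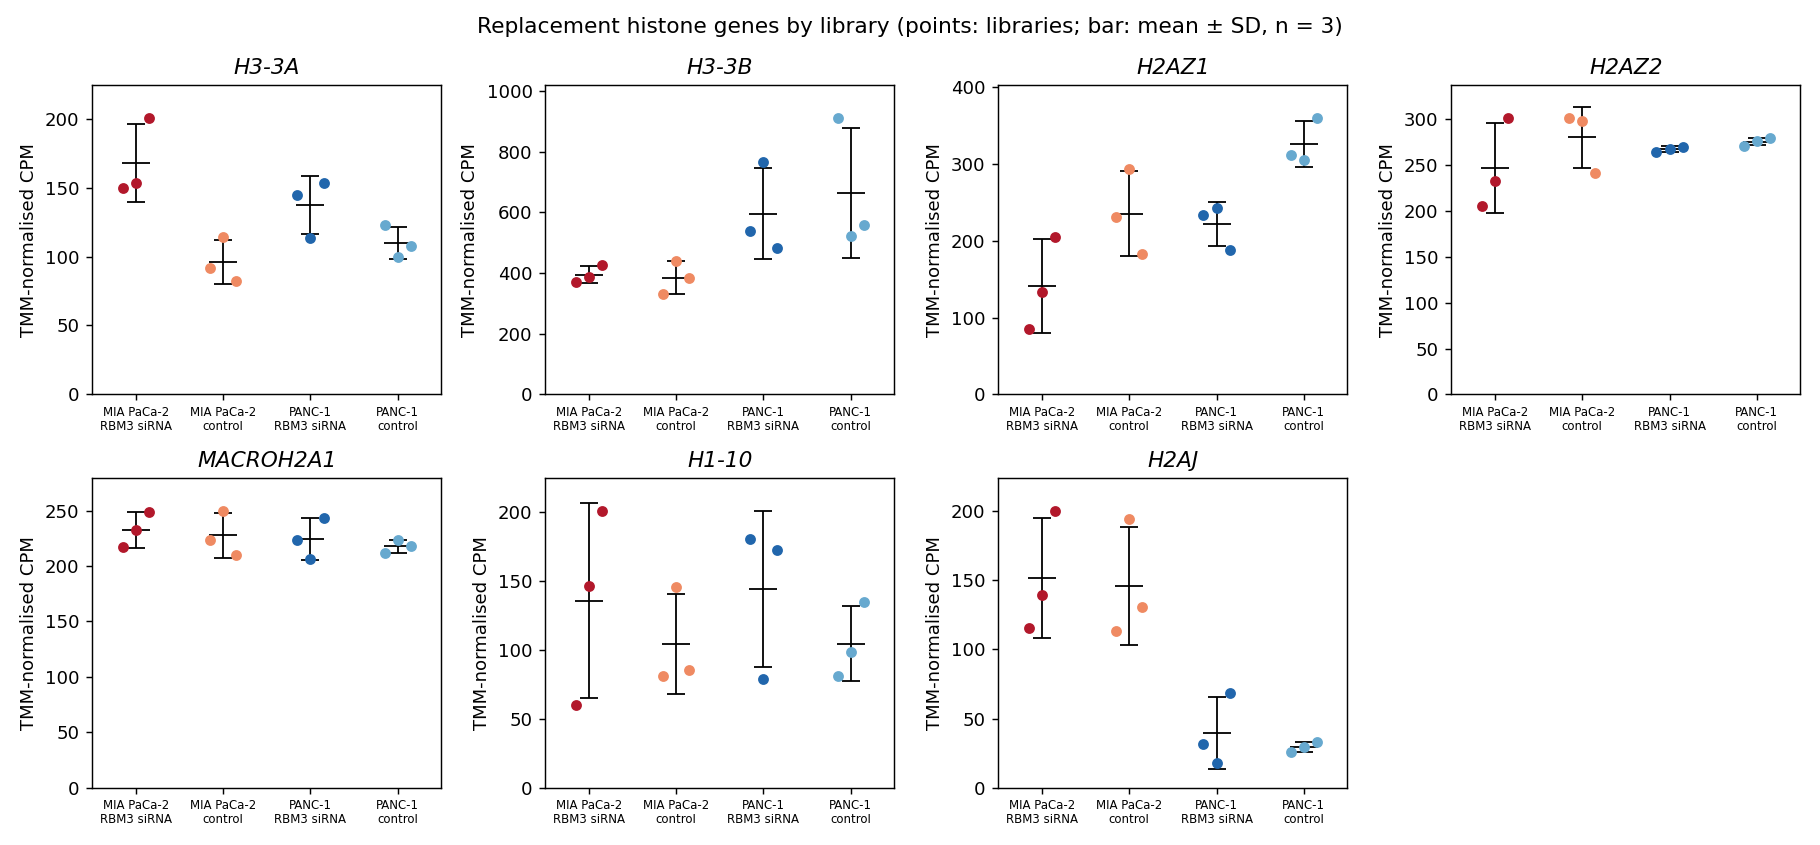
TMM-normalised CPM of each of the 7 replacement histone genes (1 panel each, axes from 0) in MIA PaCa-2 and PANC-1 with RBM3 siRNA and with control siRNA. Points are libraries and bars are mean ± SD (n = 3). H3-3A lies higher in all 3 MIA PaCa-2 RBM3 siRNA libraries than in the controls, and H2AJ lies lower in every PANC-1 library than in any MIA PaCa-2 library.

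The share of H3-3A in the counts of the H3.3 pair does not depend on library scaling. It was 28.8%, 28.4% and 32.1% in MIA PaCa-2 RBM3 siRNA libraries, against 21.6%, 20.6% and 17.7% in control libraries. The means were 29.8% ± 2.01 and 19.99% ± 2.02 (SD, n = 3 each), and the groups did not overlap. In PANC-1 the share was 21.2%, 12.9% and 24.2% in RBM3 siRNA libraries, against 11.9%, 16.1% and 16.2% in control libraries. RBM3 siRNA replicate 2 lay inside the range of the controls, and the means of 19.4% ± 5.85 and 14.7% ± 2.46 did not separate in an exact two-sided permutation test (p = 0.3, n = 3 each, where the smallest p possible is 0.1). The difference of means was 4.69 percentage points, and 2.31 without PANC-1 RBM3 siRNA replicate 3 (exact permutation p = 0.6). Wilson 95% intervals on single shares, which cover counting error only, were narrow, for example from 12.5% to 13.3% for PANC-1 RBM3 siRNA replicate 2.

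Summed over the pair, H3.3 transcripts were at 562 ± 55.6 CPM in MIA PaCa-2 RBM3 siRNA libraries and 481 ± 66.1 CPM in control libraries (SD, n = 3 each), and the libraries overlapped. In PANC-1 the sum was 733 ± 130 CPM with RBM3 siRNA and 773 ± 226 CPM with control siRNA (exact two-sided permutation p = 0.9, n = 3 each). H3-3B held most of the counts of the pair in every library, but its longest principal transcript is also longer, at 2705 against 1308 bases. Per kilobase of that transcript, MIA PaCa-2 RBM3 siRNA libraries averaged 146 CPM of H3-3B and 128 CPM of H3-3A. In PANC-1 control libraries these means were 245 and 84.2 CPM.

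Counts on the copies of H3-3A followed those on the gene. H3P16 had between 11.7% and 17.3% of the H3-3A count in the same library, with a median of 15.6%, and H3P47 had between 8.17% and 14.6%. In MIA PaCa-2, H3P16 had 17.5, 22.6 and 31.6 CPM in RBM3 siRNA libraries, against 13.7, 16.6 and 12.8 CPM in control libraries. The RBM3 siRNA libraries again lay above the controls, and H3P47 had 12.3, 14.004 and 22.1 CPM in RBM3 siRNA libraries against 8.85, 13.3 and 8.07 CPM in control libraries, which overlapped. Whether these counts are reads of H3-3A was not tested. With the 6 pseudogene rows named for H3-3A added to it, the MIA PaCa-2 log2 fold change of H3-3A was 0.80, and with all 43 H3 pseudogene rows other than those named for H3-3B added it was 0.79. H3P36, whose older name refers to H3-3B, matched H3-3A at 98.5% of positions and H3-3B at 77.6%. It had at most 94 counts in a library and is not in these sums. The 7 pseudogene rows named for H2AZ1 together held at most 0.881% of the H2AZ1 count.

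**Figure D2:**
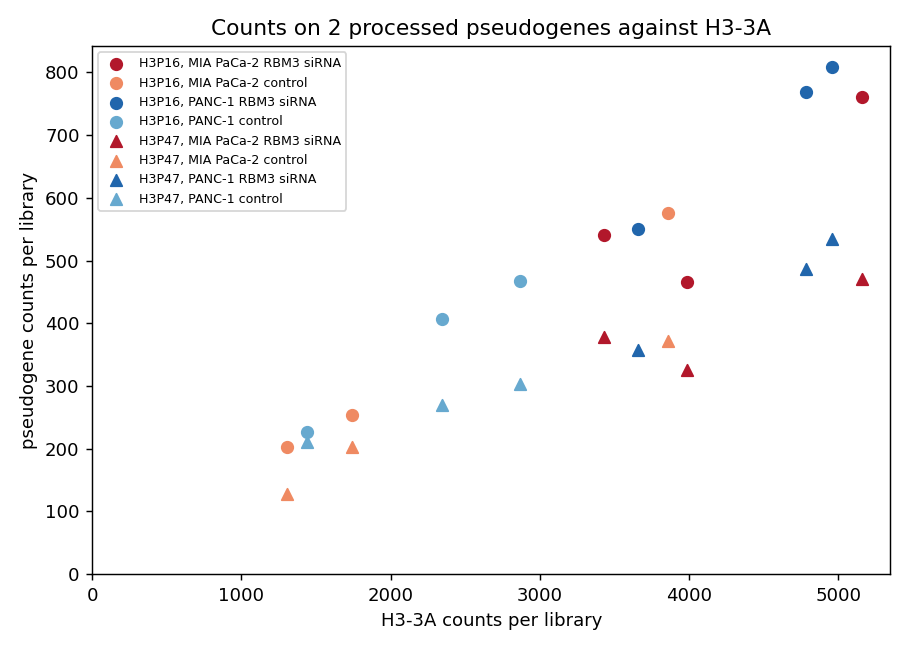
Counts per library on the processed pseudogenes H3P16 (circles) and H3P47 (triangles) against counts on H3-3A, 1 point per library, coloured by group, linear axes from 0. Pseudogene counts stay between 8.17% and 17.3% of the H3-3A count in all 12 libraries.

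Of the H2A.Z genes, H2AZ1 averaged lower in RBM3 siRNA libraries than in control libraries of both lines, without passing the test in PANC-1. H2AZ1 had 233, 243 and 189 CPM in PANC-1 RBM3 siRNA libraries, against 312, 306 and 359.9 CPM in control libraries. All 3 RBM3 siRNA libraries lay below all 3 controls, but the difference did not pass the test (log2 fold change -0.56, SE 0.27, unadjusted p = 0.0607, adjusted p = 1.0 in edgeR). Without PANC-1 RBM3 siRNA replicate 3 it was -0.47 (adjusted p = 1.0). In MIA PaCa-2, H2AZ1 had 84.9, 133 and 205 CPM in RBM3 siRNA libraries, against 231, 293 and 182 CPM in control libraries. RBM3 siRNA replicate 5 lay above control replicate 4, so these groups overlapped, and the log2 fold change was -0.74 (SE 0.27).

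H2AZ2, the other H2A.Z gene, varied little in PANC-1. It had 264, 268 and 270.4 CPM in PANC-1 RBM3 siRNA libraries, against 271, 276 and 279.8 CPM in control libraries. The RBM3 siRNA libraries lay below the controls by less than 1 CPM at the nearest pair, with a log2 fold change of -0.04 (SE 0.16, adjusted p = 1.0 in edgeR), and -0.07 without replicate 3. It had 206, 233 and 301 CPM in MIA PaCa-2 RBM3 siRNA libraries, against 301, 298 and 242 CPM in control libraries, and the groups overlapped (log2 fold change -0.18, SE 0.16). H2AZ1 and H2AZ2 were the 2 of 7 genes with all PANC-1 RBM3 siRNA libraries below the controls, as had 2.77% of all genes tested. In PANC-1, 0 of the 7 genes passed the threshold in edgeR, DESeq2 or limma-voom and 0 had an unadjusted edgeR p under 0.05, while 0.0% of all genes tested passed it in edgeR, 0.0169% in DESeq2 and 0.0% in limma-voom. The median PANC-1 log2 fold change was 0.04 over the 7 genes and 0.03 over all genes tested.

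H2AZ1 made up 46.9%, 47.5% and 41.1% of the counts of the H2A.Z pair in PANC-1 RBM3 siRNA libraries, against 53.5%, 52.5% and 56.3% in control libraries. The groups did not overlap, with means of 45.2% ± 3.55 and 54.1% ± 1.94, and the exact two-sided permutation p was 0.1, the smallest that 3 against 3 libraries allow. In MIA PaCa-2 the share was 29.2%, 36.4% and 40.5% in RBM3 siRNA libraries, against 43.4%, 49.6% and 43.0% in control libraries. All RBM3 siRNA libraries lay below all controls there as well. Without PANC-1 RBM3 siRNA replicate 3, the library with high COL1A2 and ALDH1A1, the PANC-1 difference of means was -6.87 percentage points, against -8.91 with it. The summed H2A.Z level was 489 ± 26.5 CPM in PANC-1 RBM3 siRNA libraries and 602 ± 32.9 CPM in control libraries (SD, n = 3 each), again without overlap (exact two-sided permutation p = 0.1, the smallest possible).

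**Figure D3:**
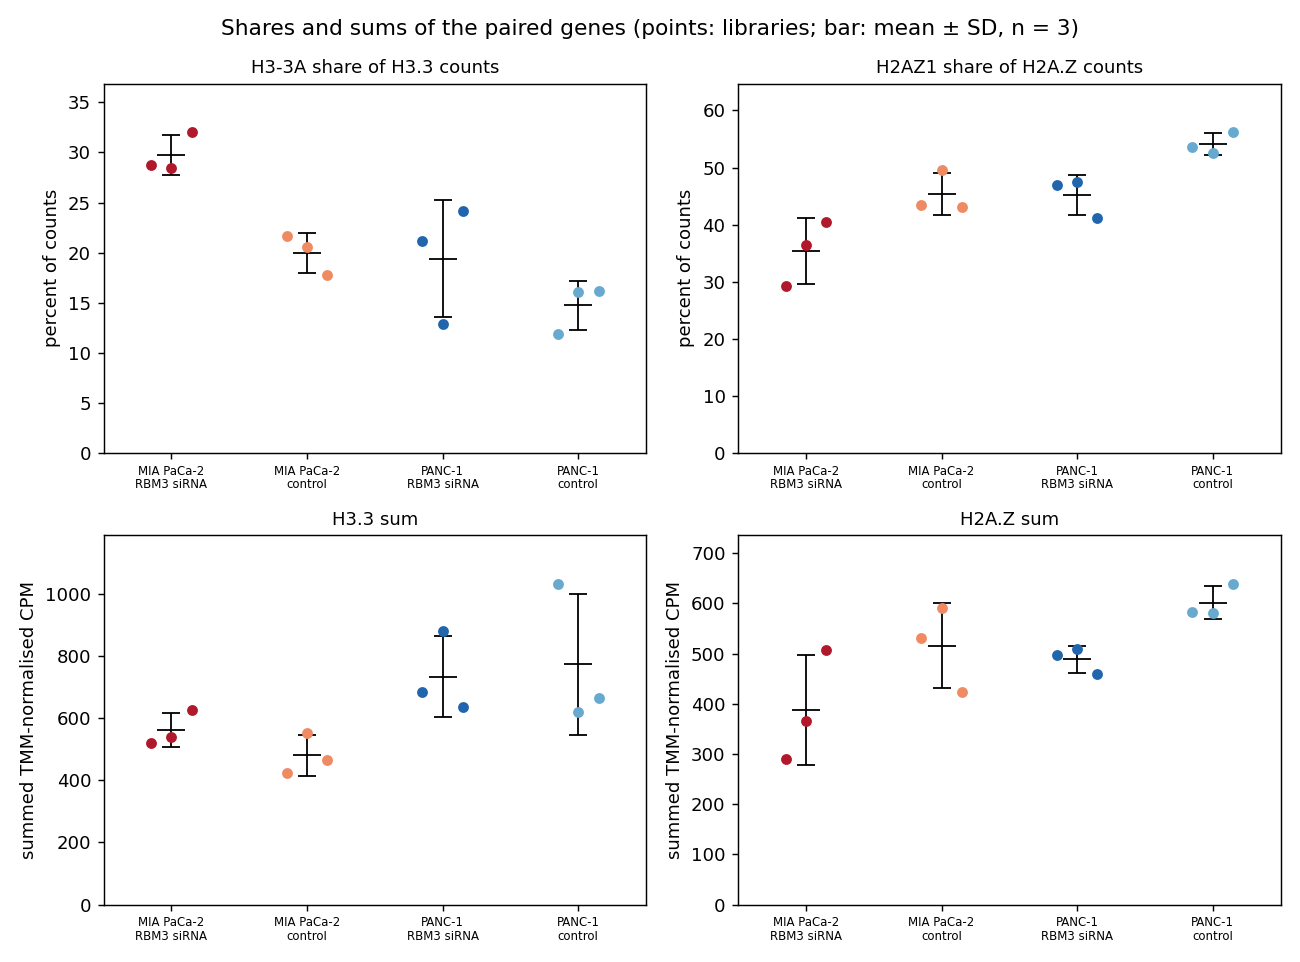
Share of H3-3A in the counts of the H3.3 pair and of H2AZ1 in the counts of the H2A.Z pair (top, percent), and summed TMM-normalised CPM of each pair (bottom), by group; points are libraries, bars mean ± SD (n = 3). The H3-3A share is 29.8% with RBM3 siRNA against 19.99% with control siRNA in MIA PaCa-2, and the H2AZ1 share is 45.2% against 54.1% in PANC-1.

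MACROH2A1, H1-10 and H2AJ did not pass the test for RBM3 siRNA in PANC-1. MACROH2A1, which had the smallest SD relative to its mean of the 7 genes over all 12 libraries, had 224, 206 and 244 CPM in PANC-1 RBM3 siRNA libraries, against 212, 223 and 218 CPM in control libraries (log2 fold change 0.04, SE 0.13, adjusted p = 1.0 in edgeR). Without RBM3 siRNA replicate 3 the sign turned, at -0.04. In MIA PaCa-2 it had 217, 232 and 248 CPM in RBM3 siRNA libraries, against 223, 249 and 210.0 CPM in control libraries. In both lines the groups overlapped, and the MIA PaCa-2 log2 fold change was 0.03 (SE 0.13).

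H1-10 spread widely within every group. It had 180.3, 78.6 and 172 CPM in PANC-1 RBM3 siRNA libraries, against 80.7, 98.2 and 135 CPM in control libraries (log2 fold change 0.46, SE 0.42, adjusted p = 1.0 in edgeR), and the log2 fold change was 0.29 without RBM3 siRNA replicate 3. It had 59.9, 146 and 200.4 CPM in MIA PaCa-2 RBM3 siRNA libraries, against 81.2, 146 and 85.7 CPM in control libraries (log2 fold change 0.38, SE 0.42). The highest RBM3 siRNA library exceeded the lowest by more than the groups differed in either line. H1-10-AS1, on the opposite strand, held between 5.56% and 11.98% of the H1-10 count, and since no strand setting is given, reads of the 2 genes cannot be told apart.

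H2AJ had 31.9, 17.8 and 68.2 CPM in PANC-1 RBM3 siRNA libraries, against 25.6, 29.2 and 33.0 CPM in control libraries (log2 fold change 0.42, SE 0.39, adjusted p = 1.0 in edgeR). The highest value belonged to replicate 3, the library with high COL1A2 and ALDH1A1, and without it the log2 fold change was -0.26 (adjusted p = 1.0). In MIA PaCa-2, H2AJ had 116, 140 and 200.01 CPM in RBM3 siRNA libraries, against 113, 194 and 131 CPM in control libraries, which overlapped (log2 fold change 0.05, SE 0.39).

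Between the lines, H2AJ was lower and H3-3B higher in PANC-1. Under control siRNA, H2AJ averaged 29.3 ± 3.72 CPM in PANC-1, against 146 ± 42.7 CPM in MIA PaCa-2 (SD, n = 3 each), a log2 fold change of -2.32 (SE 0.41, adjusted p = 0.000633 in edgeR). The same comparison among RBM3 siRNA libraries, which share no library with it, gave 39.3 ± 26.003 CPM in PANC-1 and 152 ± 43.4 CPM in MIA PaCa-2, a log2 fold change of -1.95 (SE 0.40, adjusted p = 0.00247 in edgeR). Without PANC-1 RBM3 siRNA replicate 3 the second value was -2.62 (adjusted p = 2.6e-05 in edgeR). No PANC-1 library reached the lowest MIA PaCa-2 library in either comparison.

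H3-3B averaged 663 ± 215 CPM in PANC-1 and 385 ± 53.6 CPM in MIA PaCa-2 under control siRNA, a log2 fold change of 0.79 (SE 0.23, adjusted p = 0.0128 in edgeR), and all PANC-1 libraries lay above all MIA PaCa-2 libraries. PANC-1 control replicate 1, at 911 CPM, decided this call: without it the log2 fold change was 0.50 (adjusted p = 0.0621). Under RBM3 siRNA it was 0.60 (SE 0.23, adjusted p = 0.0513), again without overlap, and without PANC-1 RBM3 siRNA replicate 3 it was 0.73 (adjusted p = 0.02). The highest PANC-1 values of H3-3B came from control replicate 1 and RBM3 siRNA replicate 2, whose deviations from their group means correlated at 0.56 across the genes tested, the highest of the 9 pairs of a PANC-1 RBM3 siRNA and a PANC-1 control library. The part of this shared deviation in the line difference was not tested. H3-5, the copy of H3-3B, had 8.20 ± 2.40 CPM in PANC-1 and 3.93 ± 0.774 CPM in MIA PaCa-2 under control siRNA (log2 fold change 1.07, SE 0.30, adjusted p = 0.00956 in edgeR). UNK, on the opposite strand, held between 4.28% and 12.1% of the H3-3B count. With no strand setting given, reads of UNK and H3-3B cannot be told apart where the genes overlap.

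Of the 7 genes, 2 passed the threshold between the lines under control siRNA, where 50.8% of all genes tested did, and 1 passed it under RBM3 siRNA, where 43.6% did. By direction, 1 of the 7 was higher in PANC-1 under control siRNA, as were 26.0% of all genes, and 1 was lower, as were 24.8%. Without PANC-1 RBM3 siRNA replicate 3, 3 of the 7 passed the threshold under RBM3 siRNA, where 50.2% of all genes did, and 3 also passed with all libraries in DESeq2 and in limma-voom, where 46.6% and 46.8% of all genes did. Under control siRNA, 2 of the 7 lay above and 1 below in all PANC-1 libraries, and 61.5% of all genes tested had such separated libraries in either direction. H2AZ1 averaged 326 ± 29.6 CPM in PANC-1 and 235 ± 55.4 CPM in MIA PaCa-2 under control siRNA, without overlap (log2 fold change 0.47, SE 0.27, adjusted p = 0.166 in edgeR). Under RBM3 siRNA its log2 fold change was 0.65 (SE 0.27, adjusted p = 0.0685), and 0.76 (adjusted p = 0.041) without PANC-1 RBM3 siRNA replicate 3. Without MIA PaCa-2 RBM3 siRNA replicate 5, which had the highest H2AZ1 level of its group, it was 1.04 (adjusted p = 0.00737). H3-3A, H2AZ2, MACROH2A1 and H1-10 overlapped between the lines in both comparisons, with log2 fold changes between -0.29 and 0.20. H3-3A made up a smaller share of the H3.3 pair in PANC-1, at 14.7% ± 2.46 against 19.99% ± 2.02 in MIA PaCa-2 under control siRNA and at 19.4% ± 5.85 against 29.8% ± 2.01 under RBM3 siRNA, with no overlap in either comparison. The difference under RBM3 siRNA was -10.3 percentage points, and -12.7 without PANC-1 RBM3 siRNA replicate 3. Since these shares hold the H3-3A values that chose the genes, they are a description.

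**Figure D4:**
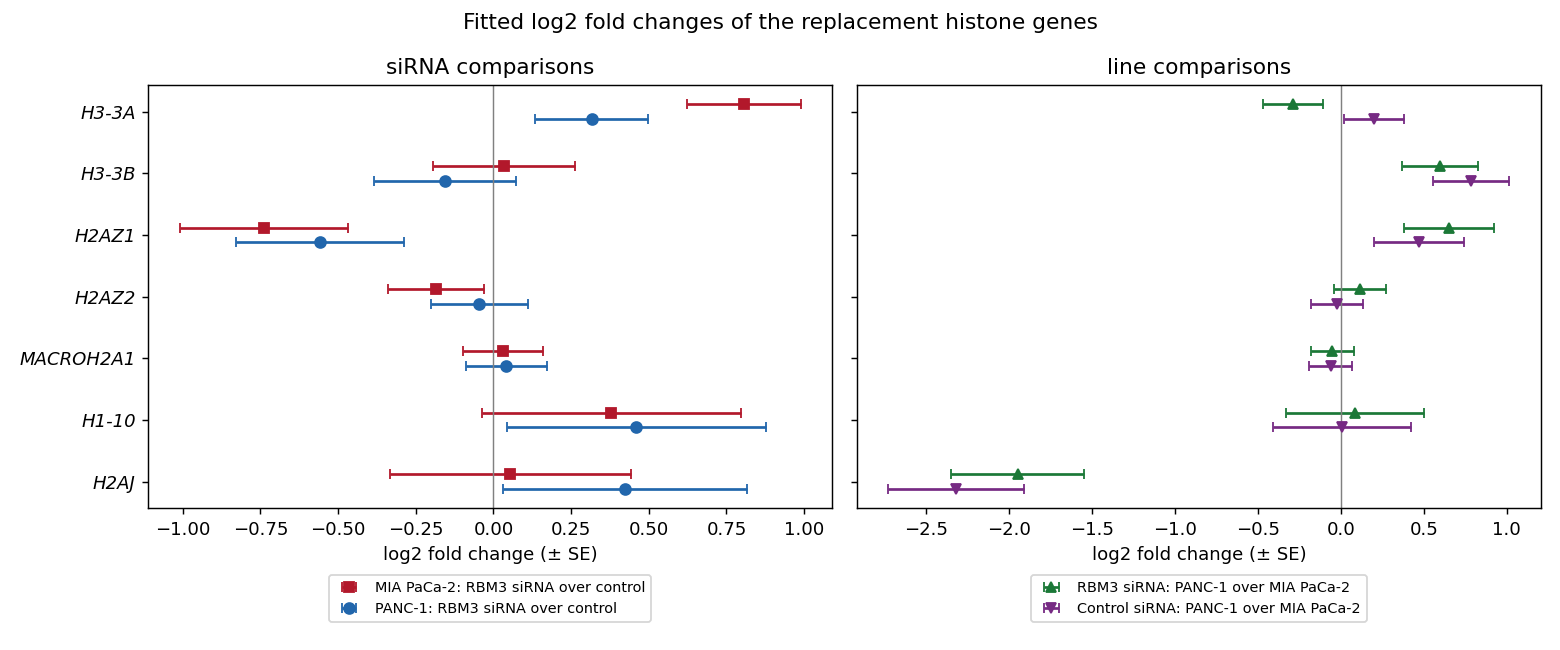
Fitted log2 fold changes ± SE (edgeR) of the 7 genes, for RBM3 siRNA over control siRNA in MIA PaCa-2 and PANC-1 (left) and for PANC-1 over MIA PaCa-2 under RBM3 siRNA and control siRNA (right). H3-3A in MIA PaCa-2 (0.81) and H2AJ between the lines (-2.32 and -1.95) lie farthest from 0 in their panels.

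Levels of different genes can be compared only per length. Per kilobase of all annotated exons (GENCODE, GRCh38), H2AZ1 was highest in PANC-1 control libraries at 142 ± 12.9 CPM, followed by H3-3B at 108 ± 35.1, H1-10 at 69.3 ± 18.2, H2AZ2 at 58.1 ± 0.897, H3-3A at 35.0 ± 3.69, MACROH2A1 at 12.3 ± 0.323 and H2AJ at 8.72 ± 1.11 CPM per kilobase (SD, n = 3 each). The ranges of H3-3B and H1-10 reached those of their neighbours. In MIA PaCa-2 RBM3 siRNA libraries, H1-10 came first at 89.96 ± 47.01 CPM per kilobase, and H3-3B, H2AZ1, H3-3A, H2AZ2 and H2AJ followed between 64.2 ± 4.50 and 45.2 ± 12.9 CPM per kilobase, each within the spread of its neighbours. Per kilobase of the longest principal transcript, H2AZ2 came first in all 4 groups, so the order of the genes depends on which transcript length is used.

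Genes whose levels followed these 4 histone genes most closely were sought by correlating log2 CPM, less the mean of the line, over the 12 libraries among 9990 genes. The libraries share depth and culture effects, so these are descriptions. Only the line mean was removed, so the siRNA difference that chose H3-3A remains in its correlations. H3-3A was most like its own pseudogene H3P16 (Pearson r 0.95), then BANF1, which encodes a chromatin and nuclear envelope protein (0.92), and IFT22, an intraflagellar transport gene (0.92). H3-3B was most like NFKBIA, an inhibitor of NF-kB (0.96), BAIAP2 (0.95) and EMC3 (0.95). H2AZ1 was most like SNX12 (0.96), DDX23, a splicing helicase gene (0.95), and NRSN2 (0.94). H2AZ2 was most like PFAS, a purine synthesis enzyme gene (0.99), SPHK2 (0.97) and MED22, a Mediator subunit gene (0.96).

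Of 10 H3.3 deposition genes, 2 were higher and 2 lower in PANC-1 under control siRNA, near the 26.0% and 24.8% of all genes tested, and the median log2 fold change was -0.06, against 0.0014 over all genes tested. Without MIA PaCa-2 control replicate 4, 2 of the 10 passed the test, beside 7749 of all 18526 genes tested. UBN1, a HIRA complex subunit, averaged 115 ± 9.79 CPM in PANC-1 and 66.9 ± 8.86 CPM in MIA PaCa-2 (log2 fold change 0.78, SE 0.20, adjusted p = 0.00589 in edgeR). CABIN1, another subunit of that complex, averaged 72.3 ± 8.05 CPM in PANC-1 and 122 ± 4.50 CPM in MIA PaCa-2 (log2 fold change -0.75, SE 0.15, adjusted p = 0.00148), and the UBN1 paralogue UBN2 averaged 19.9 ± 2.18 CPM in PANC-1 and 33.6 ± 9.62 CPM in MIA PaCa-2 (log2 fold change -0.75, adjusted p = 0.0138). DEK and ATRX, the most abundant of the list, did not pass the test, at 313 ± 12.3 and 100.3 ± 11.7 CPM in PANC-1 against 319.6 ± 25.5 and 136 ± 36.7 CPM in MIA PaCa-2.

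Of 15 genes for H2A.Z exchange, 2 were higher and 1 lower in PANC-1 under control siRNA, against 26.0% and 24.8% of all genes tested, and their median log2 fold change was -0.21. Without MIA PaCa-2 RBM3 siRNA replicate 5, 5 of the 15 passed, beside 9363 of all 18462 genes tested. The higher ones were KAT5, the acetyltransferase of the EP400 complex, at 64.9 ± 14.1 CPM in PANC-1 and 23.9 ± 3.49 CPM in MIA PaCa-2 (log2 fold change 1.44, SE 0.22, adjusted p = 0.000208 in edgeR), and DMAP1, a subunit of the exchange complexes, at 61.5 ± 8.83 CPM in PANC-1 and 22.8 ± 5.22 CPM in MIA PaCa-2 (log2 fold change 1.44, SE 0.22, adjusted p = 0.000244). ACTR6, an actin-related subunit of the SRCAP complex, was lower, at 20.8 ± 2.72 CPM in PANC-1 and 36.8 ± 2.80 CPM in MIA PaCa-2 (log2 fold change -0.82, adjusted p = 0.0126). ANP32E, which removes H2A.Z from nucleosomes, and the helicase gene RUVBL2 did not pass the test, with log2 fold changes of -0.36 (adjusted p = 0.0753) and -0.51 (adjusted p = 0.0752).

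Among other replacement variants, 1 of 5 measured genes was higher and 1 lower in PANC-1 under control siRNA, near the 26.0% and 24.8% of all genes, and the median log2 fold change was -0.08. MACROH2A2, the paralogue of MACROH2A1, averaged 3.57 ± 2.02 CPM in PANC-1 and 26.6 ± 4.28 CPM in MIA PaCa-2 (log2 fold change -2.91, SE 0.73, adjusted p = 0.00562 in edgeR), whereas MACROH2A1 had a log2 fold change of -0.06 (SE 0.13, adjusted p = 0.709). Under RBM3 siRNA, MACROH2A2 had 3.85, 1.18 and 15.6 CPM in PANC-1, the highest again in replicate 3, against 31.1, 26.1 and 27.6 CPM in MIA PaCa-2. The higher gene was H3-5, described above. H2AX, the variant phosphorylated at DNA breaks, did not pass the test (log2 fold change 0.64, SE 0.37, adjusted p = 0.168 in edgeR).

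Among replication-coupled histone genes, most that passed the test were higher in PANC-1. Of 63 listed genes, 29 were matched in the table and 18 were tested, of which 9 were higher and 2 lower in PANC-1 under control siRNA, beside 26.0% and 24.8% of all genes tested, with a median log2 fold change of 1.02. H2BC12, the most abundant, averaged 152 ± 24.5 CPM in PANC-1 and 34.2 ± 6.96 CPM in MIA PaCa-2 (log2 fold change 2.15, SE 0.28, adjusted p = 6.5e-05 in edgeR). H2BC11 had the largest increase, with 6.602 ± 0.790 CPM in PANC-1 and 0.686 ± 0.0861 CPM in MIA PaCa-2 (log2 fold change 3.27, SE 0.31, adjusted p = 5.5e-06), and H2BC5, H2AC6 and H1-2 had log2 fold changes of 2.80, 2.32 and 2.43 (adjusted p = 3.9e-06, 6.6e-06 and 2.0e-05). Summed over the 29 genes, these transcripts reached 222.7 to 308 CPM in PANC-1 control libraries and 59.3 to 78.9 CPM in MIA PaCa-2 control libraries. Most replication-coupled transcripts lack a poly(A) tail. The labels name the TruSeq v2 kit but do not say whether poly(A) RNA was selected. Their levels therefore cannot be set against those of the 7 genes. Whether the line differences lie in forms with or without a tail was not tested. Several of these genes are near copies of each other, and counts of single ones are uncertain.

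Of 10 genes for making and processing replication-coupled histone mRNA, 0 were higher and 5 lower in PANC-1 under control siRNA, beside 26.0% and 24.8% of all genes tested, and the median log2 fold change was -0.57. ERI1, an exonuclease that trims histone mRNA, averaged 20.1 ± 0.155 CPM in PANC-1 and 131 ± 24.8 CPM in MIA PaCa-2 (log2 fold change -2.70, SE 0.34, adjusted p = 5.2e-05 in edgeR). CPSF2 and SYMPK, subunits of the cleavage machinery, had log2 fold changes of -1.04 and -1.26 (adjusted p = 0.000165 and 0.000469). Among RBM3 siRNA libraries of PANC-1, ERI1 had 19.04, 20.8 and 52.7 CPM, and the high value again was that of replicate 3. Of 17 general histone chaperones, 3 were higher and 5 lower in PANC-1, together near the 50.8% of all genes that passed, with a median log2 fold change of -0.19. RBBP7, a histone-binding subunit of several chromatin complexes, averaged 176 ± 11.7 CPM in PANC-1 and 398 ± 41.6 CPM in MIA PaCa-2 (log2 fold change -1.18, SE 0.19, adjusted p = 0.000381). SUPT16H, a subunit of the FACT complex, and the acidic chaperone ANP32B had log2 fold changes of -0.83 and -0.84 (adjusted p = 0.000995 and 0.00115), SET had -0.54 (adjusted p = 0.00607), and NPM1, the most abundant, had -0.25 (adjusted p = 0.179).

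**Figure D5:**
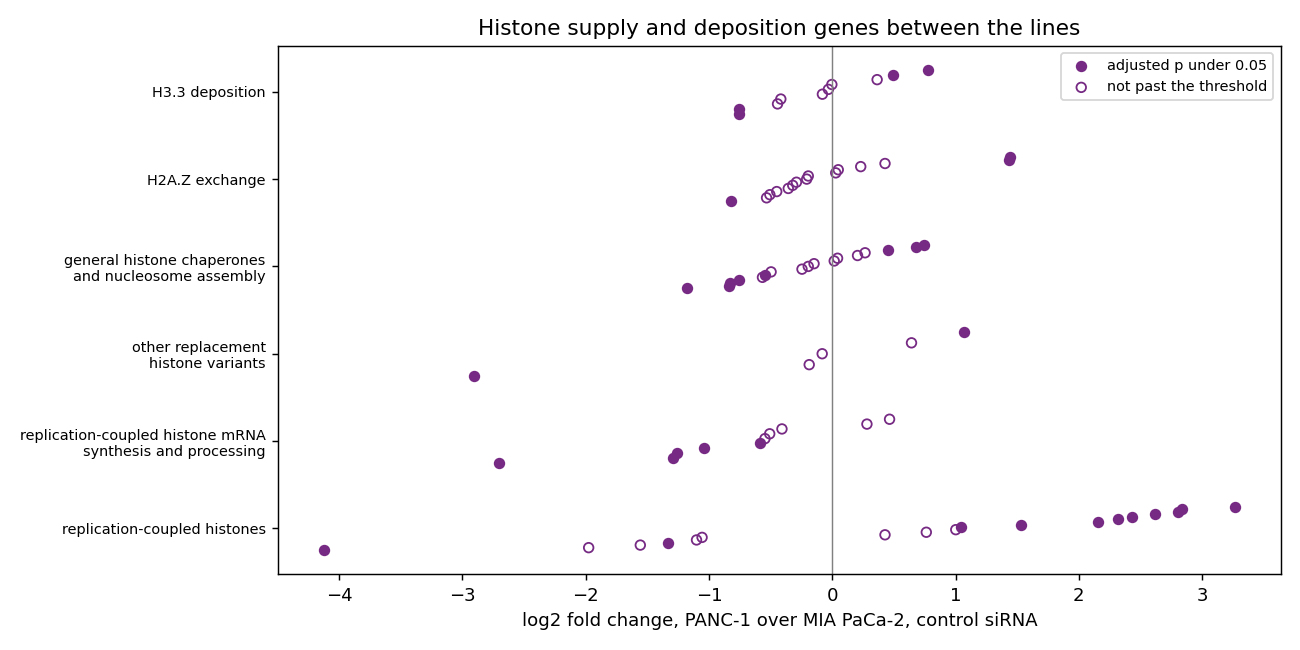
Log2 fold change of PANC-1 over MIA PaCa-2 under control siRNA for each tested gene of the 6 histone supply and deposition lists; filled points had an adjusted p under 0.05 in edgeR. Replication-coupled histones have a median of 1.02, and the genes for making and processing their mRNA have a median of -0.57.

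RBM3 siRNA gave no call in these lists. In PANC-1, 0 of the 75 tested list genes passed the threshold in edgeR, and 2 had an unadjusted p under 0.05, beside 736 of all 17862 genes. The 2 were 1 each in the replication-coupled histones and in the genes for their mRNA. The PANC-1 medians of the 6 lists lay between -0.18 and 0.20, beside 0.03 over all genes tested. In MIA PaCa-2 the medians lay between -0.06 and 0.03, given as a description.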

How the data were processed

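The authors deposited 1 table of raw read counts per gene for 12 libraries; STAR 2.5.2a, Picard and featureCounts of Subread are named in the submitters' processing notes, with hg19 (GRCh37) as the build. Per the labels' protocols, libraries were made with the TruSeq v2 kit and read as paired ends of 75 bases. Not given in the sources used here are the annotation release, the strand setting and the treatment of duplicates and of reads with several matches. Of the 63677 rows, 52181 matched a gene name by Ensembl identifier.

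Libraries were grouped by line and siRNA, 3 per group, with total counts between 14217185 and 39652502, where 3 counts equal 0.0757 to 0.211 CPM. Genes kept by filterByExpr (minimum count 10) were TMM-normalised and fitted with edgeR 4.0.16 (R 4.3.3) in 1 model over all 4 groups with 8 residual degrees of freedom. Contrasts were tested by the quasi-likelihood F-test with Benjamini-Hochberg adjustment over 17862 genes at 0.05, and the SE is the fold change divided by the root of F, an approximation. Shares and sums were compared by exact two-sided permutation tests (SciPy 1.17.1). Alternatives used DESeq2 1.42.0, limma-voom (limma 3.58.1), other size factors and filters, an adjusted p of 0.1, a replicate block, each library left out in turn, and pseudogene counts added to their parents, of which the addition of all other H3 pseudogenes was chosen after seeing the data. The edgeR step was tested on simulated counts. Within each group, the chi-square of replicate counts was at least 11.7 per degree of freedom, so no pair differed by counting error alone. It cannot show whether the libraries came from separate cultures.

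Gene lengths, overlapping genes and transcripts came from a GENCODE annotation and promoters from RefSeq, both on GRCh38, so no coordinate is set against the hg19 counts; coding sequences were taken as the longest open reading frame. The 7 genes and the gene lists were chosen with earlier results of these data known. List genes named were the 2 with the highest mean CPM and up to 3 past the threshold with the smallest p between the lines under control siRNA and at least 1 CPM. One gene that this rule names is not reported here. Genes most like 4 of the members were the 3 with the highest Pearson r, with a mean log2 CPM of at least 3. Intervals cover counting error only.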

Additional observations from a re-analysis of the deposited data

How the results depend on the processing

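No direction reversed under any alternative among the results called. The count of the 7 genes past the threshold between the lines under control siRNA was 2, and 1 to 2 with each library left out. The lower count came without PANC-1 control replicate 1, where 7822 of all 18444 genes tested passed. The count under RBM3 siRNA was 1 with edgeR, where 7781 of all 17862 genes passed. It was 3 with DESeq2 (8280 of 17767 genes), limma-voom (8368 of 17862) or no filter (8051 of 35072). An adjusted p of 0.1 also gave 3 (9492 of 17862). It was 2 with a filter of 1 CPM in 6 libraries (6577 of 14396 genes) or library size alone (7521 of 17862). Size factors by median of ratios also gave 2 (7802 of 17862). With each library left out it was 1 to 3, beside 5463 of 18375 to 9243 of 18422 genes. The added genes were H3-3B and H2AZ1, whose adjusted p of 0.0513 and 0.0685 lay near the threshold; the adjusted p of H3-3B was 0.0374 with DESeq2. The lists were called between the lines under control siRNA. Leaving out single libraries gave 2 to 5 called H3.3 deposition genes, the lowest without MIA PaCa-2 control replicate 4 (7749 of 18526 genes). For H2A.Z exchange it gave 3 to 5, the highest without MIA PaCa-2 RBM3 siRNA replicate 5 (9363 of 18462 genes). An adjusted p of 0.1 called 6 of the 15 H2A.Z exchange genes, beside 10423 of all 17862 genes. The cause of these differences was not tested.

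The log2 fold change of H3-3A in MIA PaCa-2 was 0.65 to 0.93 with each library left out. Deviations of same-numbered libraries from their group means correlated at 0.014 and -0.046 in MIA PaCa-2 and at -0.40 and -0.33 in PANC-1. With 2 such pairs in each line, these values cannot decide whether replicate numbers pair the libraries. With the replicate block, which keeps only the 2 shared numbers of each line, the log2 fold change of H3-3A in MIA PaCa-2 was 0.57. That of H2AZ1 in MIA PaCa-2 was -1.29, and 0 of the 7 genes were called in PANC-1. Replicate libraries differed by 11.7 to 184 times the chi-square per degree of freedom that counting error alone gives; the effect of depth on these calls was not tested.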
